A study of Bos taurus with 29 samples.

Results

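Luminal epithelium (LE), the cell layer that lines the uterine cavity, was compared with the stroma (ST), the connective tissue beneath it, in endometrium of cows with low circulating progesterone (P4). Samples were chosen by their labelled cell type and P4 level, which gave 6 LE and 9 ST samples, or 15 of the 29 samples of the series. The study microdissected LE, ST and glandular epithelium (GE) from frozen biopsies of Holstein cows with a healthy uterus after calving and sequenced their polyA RNA, with the aim of describing each cell type and its relation to P4. The 29 samples came from 13 cows, 9 of them labelled P4low and 4 labelled P4high.

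All 15 samples were from Holstein cows in the P4low group, and the labels name no treatment. Cows were numbered in accession order. Cows 3, 6, 10, 11, 12 and 13 gave both LE and ST, and cows 1, 7 and 8 gave ST without LE, so that 6 pairs carried the comparison. The 7 samples from P4high cows were left out, except in an alternative with all 29 samples and in the separate values of 1 P4high pair given at the end. The P4high samples also entered the scaling of the log2 CPM that set GE beside LE and ST. The P4low group joined cows that were not cycling with cyclic cows near oestrus, which the labels did not separate per cow. The stroma was cut from its superficial zone. The study chose its capture areas to keep out blood vessels and used healthy cows to limit immune cells, and whether such cells remained was not tested. The amount of RNA from a layer depends both on its cells and on the RNA within each of them, and in such bulk samples fewer cells of a type and less RNA per cell cannot be told apart.

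The luminal epithelium is a sheet of polarised cells joined by tight junctions. It is the uterine tissue that an embryo attaches to, and it secretes and takes up solutes at the uterine lumen. The stroma supplies the extracellular matrix on which this sheet rests and exchanges growth signals with it, and both layers carry steroid receptors through which ovarian hormones act. The files gave transcript identifiers without gene names, and the reference used here paired none of them with a gene. Gene roles, marker lists and sequences are therefore not given, and the labelled cell types were not checked against named markers.

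The 15 samples held 24860445 to 33209181 estimated read counts each, with a median of 28811686, and the LE samples lay within the ST range. Of 37925 transcripts in the files, 33171 had a count in at least 1 of the 15 samples and 25665 passed the filter of 10 counts in at least 3 samples. No pair of libraries held identical values. A transcript here is 1 annotated RNA form, so that several transcripts can belong to the same gene and share its reads by estimation.

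By the median correlation, LE samples resembled each other more than they resembled ST samples. Pearson's r of log2 CPM, the counts scaled to the same library total, across tested transcripts was 0.819 to 0.898 between LE samples (median 0.854) and 0.824 to 0.9 between ST samples (median 0.874). Between LE and ST it was 0.734 to 0.867 within a cow (median 0.783) and 0.703 to 0.829 between cows (median 0.759). These correlations are across transcripts, which are not independent replicates.

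A pair of libraries stood apart in how much of the other cell type's transcripts they held. For each cow, transcripts called at least 30-fold higher in 1 cell type, at a mean of at least 10 CPM there, were chosen from the other cows and then read in the cow that had been left out. In LE, the median level of the ST transcripts was 0.201% to 1.31% of their ST level in cows 3, 6, 10, 11 and 12, and 15.3% in cow 13. In ST, the median level of the LE transcripts was 0.0% in cow 10, 0.753% at the median of the 9 cows and 7.08% in cow 6, with 1.59% in cow 13 next below it. The sets held 27 to 57 ST transcripts and 292 to 394 LE transcripts, both largest for cow 13, so cows were not read on the same transcripts. The sets of all other cows were chosen with the LE library of cow 13 in the test. Likewise, only the sets of cow 6 were chosen without its ST library. The LE sample of cow 13 was also nearly as close to the ST samples, with a median r of 0.815, as to the other LE samples, with 0.831. In the other LE samples these medians were 0.729 to 0.781 and 0.849 to 0.861. The main counts below are therefore also given without the LE library of cow 13 and the ST library of cow 6. Cows 13 and 6 then have 1 cell type each, so that only the pairs of cows 3, 10, 11 and 12 carry the test with the cow block.

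**Figure D1:**
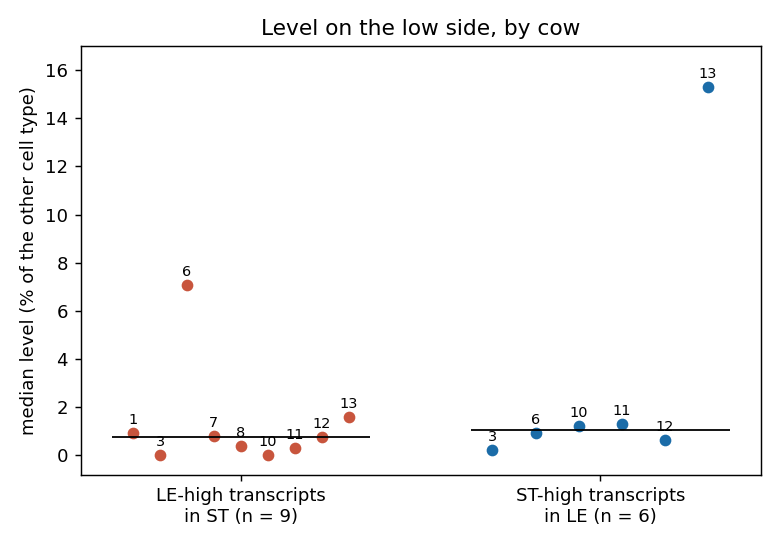
Level of transcripts in the cell type where they were low, as the median percent of their mean level in the other cell type, for each sample, with cow numbers beside the points and a line at the median. Transcripts were chosen without the cow in which they were read, and ST of cow 6 (7.08%) and LE of cow 13 (15.3%) lay above the other samples, which did not exceed 1.59%.

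LE and ST differed in 4940 of the 25665 transcripts tested, or 19.2%, at an adjusted p of at most 0.05 in edgeR's quasi-likelihood test with the cow as a block. Of these, 2353 (9.17% of those tested) were higher in LE and 2587 (10.1%) were higher in ST. A difference of at least 2-fold was found in 4112 (16.0%). At an unadjusted p below 0.05 there were 8980 transcripts.

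The numbers in each direction were similar, but the sizes were not, mostly among transcripts of low level. The median log2 difference of LE minus ST was 2.78 among transcripts higher in LE and -1.84 among those higher in ST, with -0.01 over all transcripts tested. By the mean CPM over the 15 samples, these medians were 5.66 and -5.04 below 1 CPM, and 4.25 and -2.68 from 1 to 10 CPM. They were 1.77 and -1.45 from 10 to 100 CPM, and 1.40 and -1.46 at 100 CPM or more. Sizes of transcripts near 0 in 1 cell type depend on the fit. A difference of at least 10-fold was reached by 1031 transcripts higher in LE, or 43.8% of them, and by 459 transcripts higher in ST, or 17.7%. Differences over 100-fold numbered 308 towards LE and 70 towards ST, or 416 and 68 without the LE library of cow 13 and the ST library of cow 6, an alternative chosen after seeing the data. Below 4-fold the order was the reverse, with 578 LE-higher and 926 ST-higher transcripts between 2-fold and 4-fold. Without these libraries, 1481 transcripts were higher in LE and 1494 in ST, 2975 in all. Fewer pairs carried that test. With no cow block, the number called was 6954 without these libraries and 6288 with all samples. In the test with the cow block and without these libraries, at least 10-fold differences made up 54.4% of the LE-higher and 24.4% of the ST-higher transcripts.

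The direction of the calls also varied with level, taken as the mean of the LE mean and the ST mean so that both groups weighed equally. Below 1 CPM, 4.29% of 5451 transcripts were called, 135 higher in LE and 99 higher in ST. From 1 to 10 CPM, 17.2% of 8943 were called, 805 towards LE and 733 towards ST. Among more abundant transcripts ST-higher calls were the more numerous, with 1399 against 1187 from 10 to 100 CPM and 356 against 226 at 100 CPM or more. Without the LE library of cow 13 and the ST library of cow 6, the LE and ST counts were 10 and 10, 454 and 385, 835 and 898, and 182 and 201 in these classes. Low transcripts had to differ more to be called, and the difference itself enters a transcript's mean level, so that the split by level is in part set by the calls.

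**Figure D2:**
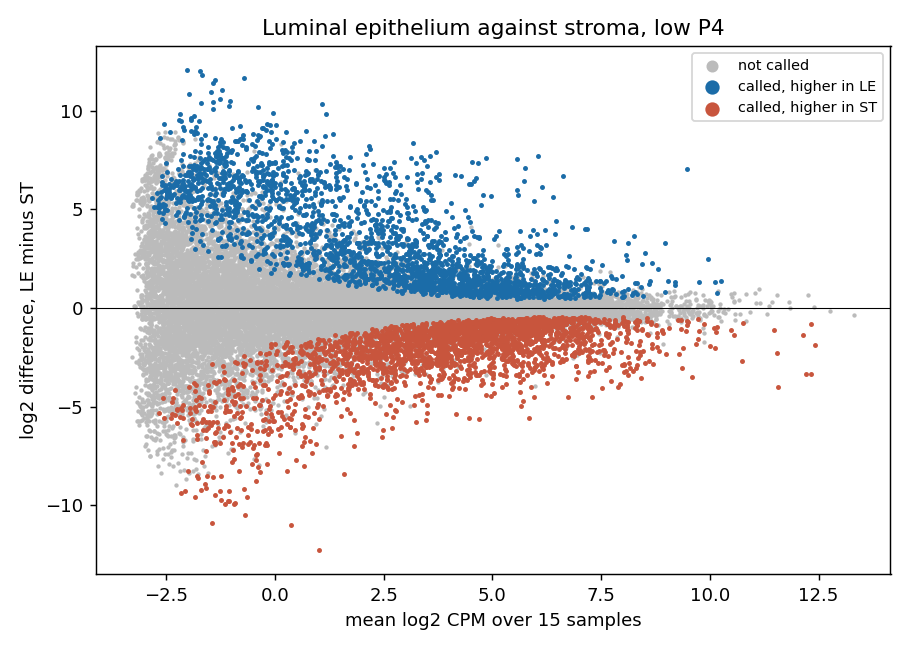
Log2 difference of LE minus ST against the mean log2 CPM over the 15 samples for the 25665 transcripts tested, 1 point each, with the 2353 called higher in LE in blue and the 2587 called higher in ST in red. Large differences towards LE were spread over the lower and middle levels, and most of the abundant called transcripts were higher in ST.

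Transcript length separated the calls less than level did. The median length was 2350 bases for LE-higher, 2165 bases for ST-higher and 2259 bases for all transcripts tested. The share called was 11.8% among the 499 transcripts shorter than 500 bases and 17.9% to 19.8% in the longer classes. Over all transcripts tested, the median log2 difference rose with length, from -0.201 below 500 bases to 0.0944 at 4000 bases or more.

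In 1212 transcripts (4.72%) every LE sample had a higher CPM than every ST sample, and 1096 of these were among the calls. The opposite separation was seen in 777 transcripts (3.03%), of which 684 were called. Without the LE library of cow 13 and the ST library of cow 6, these separations were seen in 1857 (7.36%) and 1615 (6.4%) of 25237 transcripts, a count that also gains from having fewer samples.

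A count of 0 in all 9 ST samples together with at least 10 in all 6 LE samples was found in 6 transcripts, and 3 showed the reverse pattern. These counts depended on the libraries included. They were 11 and 7 in the 6 paired cows alone, and 48 and 9 without the LE library of cow 13 and the ST library of cow 6. In ST of cow 6, 18 of the 361 LE transcripts described above were at 0, against 80 to 153 of 292 to 394 in the other ST samples. By comparison, 15025 transcripts had at least 10 counts in all 15 samples, 17268 in all LE samples and 16242 in all ST samples.

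The most abundant transcripts were largely shared. Ranked by mean TPM, a measure of level per transcript length, 72 of the top 100 in LE were also in the top 100 of ST, and 11 of these 72 were called. Among LE's top 100, 13 were higher in LE and 10 were higher in ST. Among ST's top 100, 23 were higher in ST and 1 was higher in LE. Over all transcripts tested, 19.2% were called. At 100 CPM or more, by the mean over the 15 samples, 30.1% of 1924 transcripts were called. The number called in either list was not above that share, which comes from a wider class set by CPM and not by TPM. Without the LE library of cow 13 and the ST library of cow 6, 67 of the top 100 were shared, 13 of LE's list were higher in LE and none higher in ST, and 12 of ST's list were higher in ST and none higher in LE. That test called fewer transcripts, 2975 of 25237. At 100 CPM or more, by the mean of the LE mean and the ST mean, it called 19.9% of 1925. The number called in either list was not above that share.

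The transcripts named here had the largest differences among those called in the same direction in 6 of 6 pairs, with groups that did not overlap in CPM and a mean of at least 100 CPM in the higher cell type. Their values chose them, so the tests below describe them and are not independent support.

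ENSBTAT00000022005.6, of 3945 bases, had its lowest LE value of 29.9 CPM in cow 13, a median of 77.0 and its highest of 353 CPM in cow 3. In ST it was at 0 in 7 of 9 samples, at 3.59 CPM in cow 8 and at 8.23 CPM in cow 6. The LE and ST samples did not overlap, and the only ST samples with counts included the library of cow 6 described above. Its log2 difference was 10.36 (SE 1.72, edgeR adjusted p = 0.00802, higher in LE in 6 of 6 pairs). With most ST samples at 0 this size depended on the fit, and it was 6.46 without the block for cow and 15.12 without the LE library of cow 13 and the ST library of cow 6. In GE its mean was 3.58 TPM over 7 samples, against 32.8 TPM in LE and 0.389 TPM in ST. LE exceeded GE by 4.10 on the log2 scale (edgeR adjusted p = 0.0402).

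ENSBTAT00000085382.1, of 1422 bases, ranged in LE from 59.1 CPM in cow 12 through a median of 354 to 729 CPM in cow 3. In ST its lowest value was 0, its median 1.48 and its highest 17.5 CPM, in cow 13. The lowest LE sample was thus above the highest ST sample. The log2 difference was 8.36 (SE 1.54, edgeR adjusted p = 0.0105, higher in LE in 6 of 6 pairs). Over the alternatives it ran from 6.85, with no block, to 10.97, both without the LE library of cow 13 and the ST library of cow 6. By TPM it was highest in LE among the 3 cell types, with means of 355 for LE, 9.67 for GE and 2.73 for ST. The LE minus GE difference was 7.24 on the log2 scale (edgeR adjusted p = 0.00485).

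ENSBTAT00000007913.5, of 2307 bases, was higher in ST. Its ST values ran from 9.46 CPM in cow 13 through a median of 127 to 448 CPM in cow 10, and its LE values from 0.567 CPM in cow 3 through a median of 3.07 to 6.51 CPM in cow 6. The ST sample of cow 13 was far below the other 8 ST samples, of which the lowest had 81.4 CPM, and in CPM it still exceeded every LE sample. In TPM it did not, with 3.42 against 4.11 in LE of cow 6. The log2 difference was -5.61 (SE 0.874, edgeR adjusted p = 0.00677, higher in ST in 6 of 6 pairs), and over the alternatives it ran from -6.50, without the LE library of cow 13 and the ST library of cow 6, to -5.20, without cow 10. The GE mean of 37.7 TPM lay between 1.86 TPM in LE and 91.0 TPM in ST. LE minus GE was -4.15 on the log2 scale (edgeR adjusted p = 0.00398).

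ENSBTAT00000083508.1, of 730 bases, was the most abundant of these transcripts in ST, with a mean of 1002 TPM there against 134 TPM in GE and 35.3 TPM in LE. Its ST values ran from 109 CPM in cow 1 through a median of 243 to 1295 CPM in cow 10. In LE it ran from 1.13 CPM in cow 3 through a median of 5.0 to 66.6 CPM in cow 13, the library that also held more of the other ST transcripts, and the next highest LE value was 9.69 CPM. The log2 difference was -5.58 (SE 0.857, edgeR adjusted p = 0.00651, higher in ST in 6 of 6 pairs). Over the alternatives it ran from -6.56, without the LE library of cow 13 and the ST library of cow 6, to -4.54, with DESeq2 and neither filter nor block. LE minus GE was -2.43 on the log2 scale (edgeR adjusted p = 0.0257). In this comparison of LE with GE, 2108 of 26852 transcripts (7.85%) were called.

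**Figure D3:**
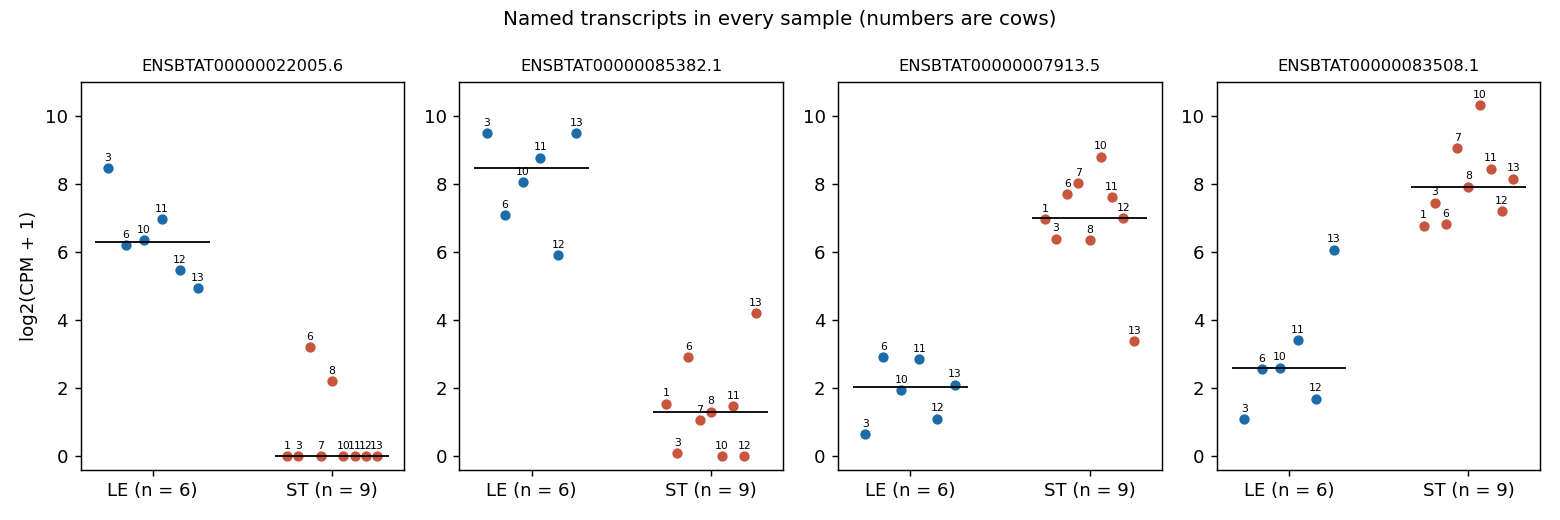
The 4 named transcripts as log2(CPM + 1) in each of the 6 LE and 9 ST samples, with the cow number above each point and a line at the group median. No transcript shows overlap between LE and ST in CPM. Cow 13 is the sample nearest the other cell type in LE for ENSBTAT00000083508.1 and ENSBTAT00000022005.6, and in ST for ENSBTAT00000007913.5 and ENSBTAT00000085382.1.

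Whether the differences recurred in a cow that had not entered the test was read by leaving out each of the 6 paired cows, calling transcripts in the rest and measuring them in that cow. The direction was the same in 92.9% of called transcripts for cow 3, 96.8% for cow 6, 96.9% for cow 10, 95.2% for cow 11, 98.5% for cow 12 and 81.6% for cow 13. The mean was 93.7% (SD 6.21, n = 6 cows). In cow 13 the differences were also smaller, with a median log2 difference of 1.22 for the LE-higher and -0.65 for the ST-higher set, against 2.32 to 3.37 and -2.53 to -1.48 in the other cows. The sets called also differed between cows. Without cow 13 they were the largest, with 2401 LE-higher and 2561 ST-higher transcripts. Their median log2 differences in that test were 2.69 and -2.11, against 2.89 to 3.52 and -2.2 to -1.76 when another paired cow was out. Cow 13 is also the cow whose LE library held ST transcripts at 15.3% of their ST level. The part of either in the lower agreement and smaller differences was not tested.

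The number of calls depended on which cows were in the test. Leaving out cow 12 gave the fewest, 2406. The number was 2854 when cow 6 was omitted, 2973 for cow 10, 3179 for cow 11, 3647 for cow 3 and 4962 for cow 13. Called in all 6 of these tests and with all cows were 2117 transcripts, 42.9% of the 4940, of which 1126 were higher in LE and 991 higher in ST. They had a median log2 difference of 3.51 towards LE and -2.24 towards ST, and a median level of 16.3 and 32.6 CPM. The calls lost in at least 1 of the tests had medians of 2.10 and -1.54, and levels of 9.41 and 17.7 CPM.

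Transcripts called in the other cows took a larger share of TPM in the cell type where they had been called higher, in every cow that gave both. Those higher in LE took 8.99% to 21.6% of all TPM in LE, with a median of 13.9% over 6 cows, and 1.39% to 4.80% in ST, with a median of 2.79% over 9 cows. Those higher in ST took 13.1% to 26.1% in ST, with a median of 21.0%, and 3.12% to 13.9% in LE, with a median of 5.48%. The highest LE value of the ST-higher set was that of cow 13, and without it the LE values ended at 8.23%. Shares are from sets of 1114 to 2592 transcripts that differ between cows, and fewer calls give a lower share.

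**Figure D4:**
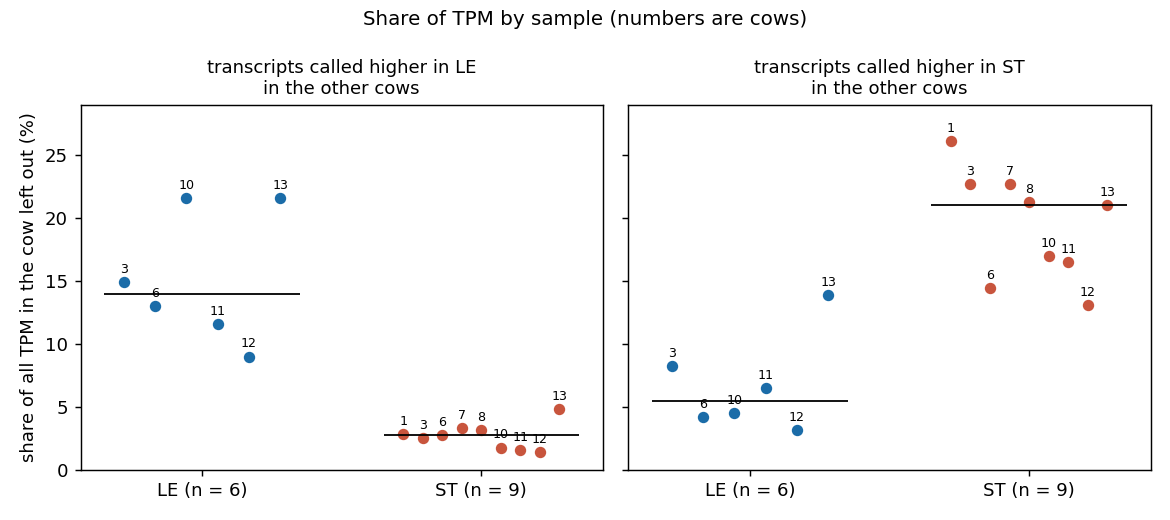
Share of all TPM taken by transcripts called higher in LE or higher in ST when the cow shown was left out, in percent, with cow numbers above the points and a line at the median. LE and ST samples did not overlap for the LE-higher sets, and for the ST-higher sets the LE sample of cow 13 (13.9%) reached above the lowest ST sample (13.1%).

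GE samples of the same cows were set beside LE and ST for the transcripts called without that cow. For transcripts higher in LE, the median log2 CPM in GE lay between the other cell types in all 6 cows and was the nearer to LE. In cow 10 it was 4.95 in LE, 4.58 in GE and 0.79 in ST, and in cow 6, where ST was highest, 4.98, 4.16 and 2.60. GE was nearer to LE than to ST in 60.7% (cow 6) to 81.7% (cow 10) of these transcripts. For transcripts higher in ST, GE was below ST in all 6 cows and above LE in 5, the exception being cow 13, where LE had 3.95, GE 3.80 and ST 4.52. The share of these transcripts in which GE was nearer to LE ran from 34.0% in cow 6 to 74.1% in cow 12.

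**Figure D5:**
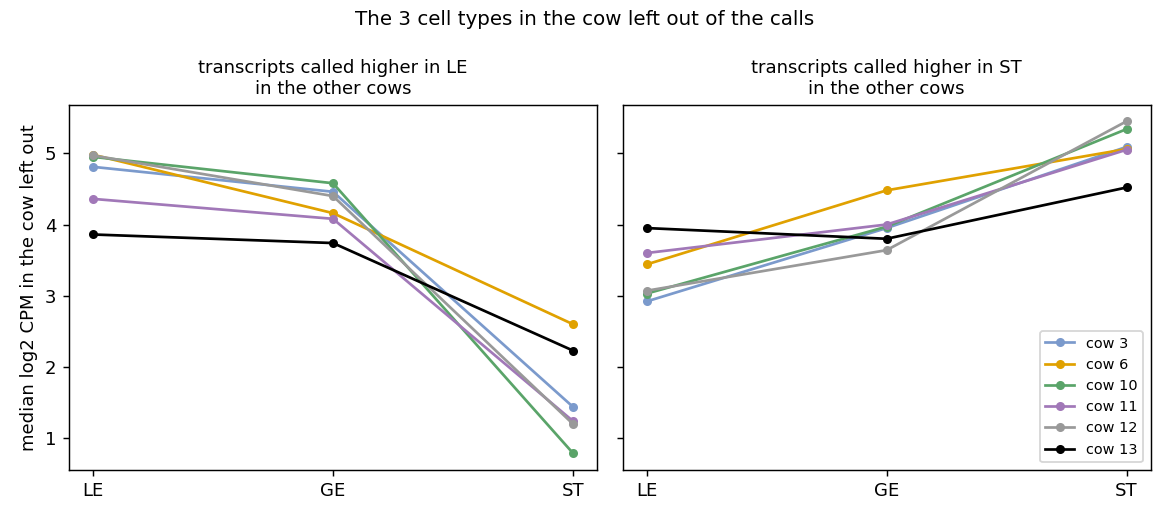
Median log2 CPM in LE, GE and ST of each of the 6 cows, 1 line per cow, over transcripts called higher in LE (left) or higher in ST (right) in the other cows. On the left GE lies close to LE and ST is lower, and on the right GE lies between LE and ST in 5 cows.

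The complexity of the RNA was compared by 3 measures, none of which passed the test as set. The number of transcripts at a TPM of at least 1 was 17484 ± 817 in LE (SD, n = 6) and 17009 ± 766 in ST (SD, n = 9). Within cows it was higher in LE by 526.8 (SD 735) on average, in 4 of 6 pairs (exact two-sided sign-flip permutation test, p = 0.188, 0.281 adjusted over 3 measures). The share of counts in the 100 most abundant transcripts was 23.3% ± 3.13 in LE and 24.6% ± 2.01 in ST, with LE higher in 3 of 6 pairs (exact permutation p = 0.344, adjusted 0.344). The mean transcript length weighted by counts was 2350 ± 79.4 bases in LE and 2421 ± 111 bases in ST, with LE higher in 2 of 6 pairs (exact permutation p = 0.156, adjusted 0.281). Counted from 10 estimated counts in place of a TPM of 1, the number of transcripts was higher in LE by 624.7 (exact permutation p = 0.0312, unadjusted). That is the smallest two-sided p 6 pairs can give, and 1 measure reaching it alone would have 0.0938 after adjustment over 3, so a single measure could not pass.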

How the data were processed

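LE, ST and GE were cut from frozen endometrial sections by laser microdissection, and the RNA was amplified as full-length cDNA and sequenced in pairs on a HiSeq instrument, with a kit that does not mark strand. The authors quantified reads per transcript with Salmon 1.1.0 against ARS-UCD1.2 transcripts, per the labels and the study's methods. The deposited files give an estimated count for each transcript (73.8% of values above 0 were not whole) and a TPM, which is scaled by length and to the same total in each sample. Amplified reads without molecular identifiers are not independent molecules. Reads shared by transcripts of a gene, by near-identical copies or by overlapping genes are divided by estimation.

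Estimated counts were rounded to whole numbers, filtered (at least 10 in at least 3 of 15 samples), normalized by TMM and tested with edgeR 4.0.16 in R 4.3.3 (quasi-likelihood, cow as a fixed block, 5 residual degrees of freedom, Benjamini-Hochberg over all transcripts tested). LE and GE were compared in the same way over the 3 cell types at low P4. CPM follow from the fit of LE and ST, and log2 CPM used a prior count of 2. The log2 CPM that set GE beside LE and ST, and those of the P4high pair, were scaled by TMM over all 29 samples. The LE and ST samples of a number came from the same animal according to the titles. Deviations from the group means correlated at 0.0913 to 0.304 within cows (median 0.201) and at a median of -0.0331 between cows. Named transcripts were at most 2 per direction, by the rule stated with them. The SE given for each was the size of its log2 difference over the square root of the F statistic of the test. DESeq2 1.42.0, limma 3.58.1, other filters, scalings, blocks and sample choices were tried as alternatives. The comparison, its samples and the lists were chosen with earlier results of these data known, and gene lists and cell type markers were not used here because no transcript had a gene name. P-values of the blocked and sign-flip tests rest on how the difference between cell types varied among cows that gave more than 1 cell type. They do not measure the spread between cows within a cell type.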

Additional observations from a re-analysis of the deposited data

Results flagged for a closer look

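A value far from the rest was sought in 21 groups of samples, by the gap to its neighbour over the range. In these groups, 8 values stood out. The limits used would flag about 1 in 20 groups by chance if values were normally distributed. CPM and percent values are skewed, and the groups share cows and transcripts chosen by their values. That rate therefore does not apply here, and whether 8 exceeds chance was not tested. In LE, ENSBTAT00000022005.6 was at 353 CPM in cow 3, and ENSBTAT00000083508.1 was at 66.6 CPM in cow 13. In ST, ENSBTAT00000022005.6 was at 8.23 CPM in cow 6, ENSBTAT00000085382.1 at 17.5 CPM in cow 13 and ENSBTAT00000083508.1 at 1295 CPM in cow 10. The level of transcripts on their low side was 15.3% of the other cell type's in LE of cow 13 and 7.08% in ST of cow 6. The share of calls with the same direction was 81.6% in cow 13. Cow 13 accounts for 4 of these values and cow 6 for 2.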

How the results depend on the processing

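The cow block was part of the test, and no replicate block gave 6288 calls, 3269 higher in LE and 3019 higher in ST. Counts were higher with DESeq2 and the cow block (8837; 4593 LE, 4244 ST; 6498 at least 2-fold), with limma voom and cow as a random block (8393; 4213, 4180; 6408), with DESeq2, length offsets and neither filter nor block (7997 in all, 4380 in LE) and with all 29 samples (7742 in all, 4057 in LE), and the cause was not tested. Leaving out 1 cow in turn gave 2406 to 4969 calls, 1292 to 2401 higher in LE, 1114 to 2592 higher in ST and 2278 to 4300 of at least 2-fold. The lowest counts were without cow 12. In an alternative chosen after seeing the data, without the LE library of cow 13 and the ST library of cow 6, 2975 transcripts were called (1481 in LE, 1494 in ST), and 6954 without a block as well (3647 in LE). RLE scaling gave 4825 calls, no filter on low counts 4306, and the share of calls higher in LE was 46.7% to 54.9% over all settings, against 47.6%. The 4 named transcripts kept their direction and their side of the threshold in every refit, which gave 88 values over the 4 transcripts. The number of transcripts detected, counted from 10 estimated counts, was higher in LE by 624.7 (exact permutation p = 0.0312, unadjusted), and the share of the top 100 by TPM was 1.112 percentage points higher in LE (p = 0.469, exact permutation), the opposite of the direction by counts. Transcripts at 0 in every ST sample numbered 11 and in every LE sample 7 in the 6 paired cows alone, and 48 and 9 without those 2 libraries. Sums per gene were not run, since no transcript was paired with a gene. The design cannot separate low P4 cows by ovarian state.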

Other observations

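A cow labelled P4high, cow 9, gave both LE and ST and did not enter the calls. In it, 92.1% of the 2353 LE-higher transcripts and 92.8% of the 2587 ST-higher transcripts differed in the same direction, with median log2 differences of LE minus ST of 2.21 and -1.67. This is 1 pair, with no replicate.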
